A study of Homo sapiens with 6 samples.

Results

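The 58 genes described here lie on the long arm of chromosome 22 (22q), past 29.2 Mb in the GRCh38 build, and are 58 of the 26372 genes of the deposited table. They were chosen by their position and by measured values: the stretch was picked out because RNA levels there were lower in the knockdown than in the control libraries of these same samples. The knockdown-minus-control differences of the members are therefore a description, and no test of them is given as support. Past the same position, 297 other genes of the table lie on the arm, and 206 genes of the table lie on 22q before it. All 58 members are annotated as protein coding, 28 on the plus and 30 on the minus strand, and they span 21.5 Mb, from chr22:29259852 to chr22:50783663. GENCODE 29 placed 57 of them by the table's symbol and 1 (MKL1) by its newer symbol, MRTFA.

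RNA was measured by sequencing of polyadenylated RNA in 6 libraries of BE(2)-M17, an established human neuroblastoma cell line. In 3 libraries GOMAFU, a long non-coding RNA whose symbol in the table is MIAT, had been knocked down, and 3 libraries were controls of the same line. Both groups carry the replicate numbers 2, 3 and 4, and the values below are given in that order. What the control cells received, when the cells were harvested and whether replicates were separate cultures are not stated, so the spread between libraries may be technical. The labels' shared protocol describes lipid transfection of small RNAs at 100 pmol. The values are FPKM, in which the fragments of a gene are divided by its length and by the total mapped in that library, so levels of different genes can be set side by side.

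Chromosome 22 is acrocentric, so nearly all of its protein-coding genes sit on the long arm. The amount of RNA a gene gives depends in part on how many copies of it a cell holds, and neuroblastomas are known for gains and losses of parts of chromosomes. Among the genes of distal 22q are NF2, a tumour suppressor that holds back growth signals, EP300, a histone acetyltransferase used by many transcription factors, and single subunits of complexes whose other subunits are encoded on other chromosomes. In what follows, dosage means the RNA level in the knockdown libraries as a share of the control mean. DNA copies were not analysed here, and in bulk RNA fewer cells of a type and less RNA per cell cannot be told apart.

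The libraries had FPKM sums of 579365 to 637153, and 11976 to 12314 genes per library reached 1 FPKM. Depth in reads is not in the table. Relative depth was estimated from genes under 0.1 FPKM in every library, on the assumption that such values stand for 1 fragment. The inverse of their most frequent ratio to control library 3 gave 0.966 to 1.09 in the controls and 1.06 to 1.37 in the knockdown libraries. For the 1.37, of knockdown library 3, that ratio held 108 of 554 genes, so these depths are rough. MIAT itself (chr22:26646428-26676475, plus strand), which lies before the stretch, measured 5.38, 5.96 and 8.57 FPKM in the control libraries and 1.27, 1.32 and 3.21 FPKM in the knockdown libraries, that is 29.2% of the control mean. The groups did not overlap (log2 difference -1.42 (SE 0.27), adjusted p = 0.9998 with limma and the Benjamini-Hochberg method; exact two-sided permutation p = 0.1, the smallest that 3 against 3 allows). With library weights the adjusted p of MIAT was 0.00299, and without both libraries numbered 4 it was 0.015 (both limma). Knockdown library 4 stood apart, with correlations across genes of 0.94 to 0.956 with the other libraries, each of which reached 0.99 to 0.997 with its most similar library. The summed level of 24 interferon response genes was 41.5 to 49.1 FPKM in the controls and 528, 80.9 and 11830 FPKM in knockdown libraries 2, 3 and 4. Of 11 neuroblastoma markers 9 were at a mean of 1 FPKM or more, and TH was under 0.1 FPKM in all 6 libraries. Their summed level was 5176 to 5303 FPKM in the controls and 4455 to 4791 FPKM in the knockdown libraries. Of 6 fibroblast markers 3 reached that mean (DCN, LUM and PDGFRB; sums of 80.9 to 101 and 93.9 to 104 FPKM) with COL1A2 at 0. Of 6 blood markers 1 did (CD14), with CD3E and HBB at 0, and of 6 epithelial markers 1 did (KRT19). The part of the interferon genes and of the markers in the results below was not tested.

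Most of the 22q members had lower mean levels in the knockdown than in the control libraries, by shares that differed between genes. Of the 58 members, 56 had a mean of at least 1 FPKM and were kept, and CBX7 and BIK did not. For 54 of the 56 the knockdown mean was below the control mean on the log2(FPKM + 1) scale, and HMOX1 and TCF20 were the exceptions. The same held for 6488 of all 12164 genes kept. In the median member the knockdown libraries averaged 87.1% of control, with quartiles of 82.9% and 90.2%, a lowest value of 77.5% (RABL2B) and a highest of 112% (HMOX1). It lay under 80% in 6 members, between 80% and 90% in 34, between 90% and 100% in 14 and over 100% in 2. The median log2 difference over the members was -0.19, beside -0.01 over all 12164 genes kept. HMOX1 was below 0 as well with a smaller pseudocount or quantile normalization, and TCF20 without both libraries numbered 4.

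For 27 of the 56 members all 3 knockdown values lay under all 3 control values, and for 0 of the 56 did all 3 lie above. Over all genes kept those shares were 4.35% for lower and 4.01% for higher. Since the members were picked on this contrast, nothing is read from the gap between 27 of 56 and that background. In single libraries, 41 of 56 members were below all 3 controls in knockdown library 2, where 25.9% of all genes were. In knockdown library 3 it was 40 of 56 beside 21.2% of all genes, and in knockdown library 4 it was 37 of 56 beside 35.9%. No gene of the table passed an adjusted p of 0.05 with limma (0% of 12164), members included. At an unadjusted p under 0.05 there were 263 genes, 22 of them members. With limma's library weights 22 genes passed the adjusted threshold, 4 of them members.

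The median member was lower than the control mean by a like amount in each knockdown library: the medians were -0.22, -0.18 and -0.20 in libraries 2, 3 and 4 on the log2 scale, or ratios of 0.849, 0.875 and 0.859 to control. Each control library set against the other controls gave medians of 0.05, 0.00 and -0.04. Without knockdown library 4, the library with the high interferon genes, the members' median was -0.19 and 37 members were lower without overlap, beside 11.6% of all genes. Without both libraries numbered 4, it was 48 of 56 beside 19.3% of all genes. Single genes were less even than these medians, as the plot of each member by library shows. PLXNB2, for example, had ratios of 0.727, 0.744 and 1.11 to its control mean, and YWHAH had 0.939, 0.95 and 0.656.

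**Figure D1:**
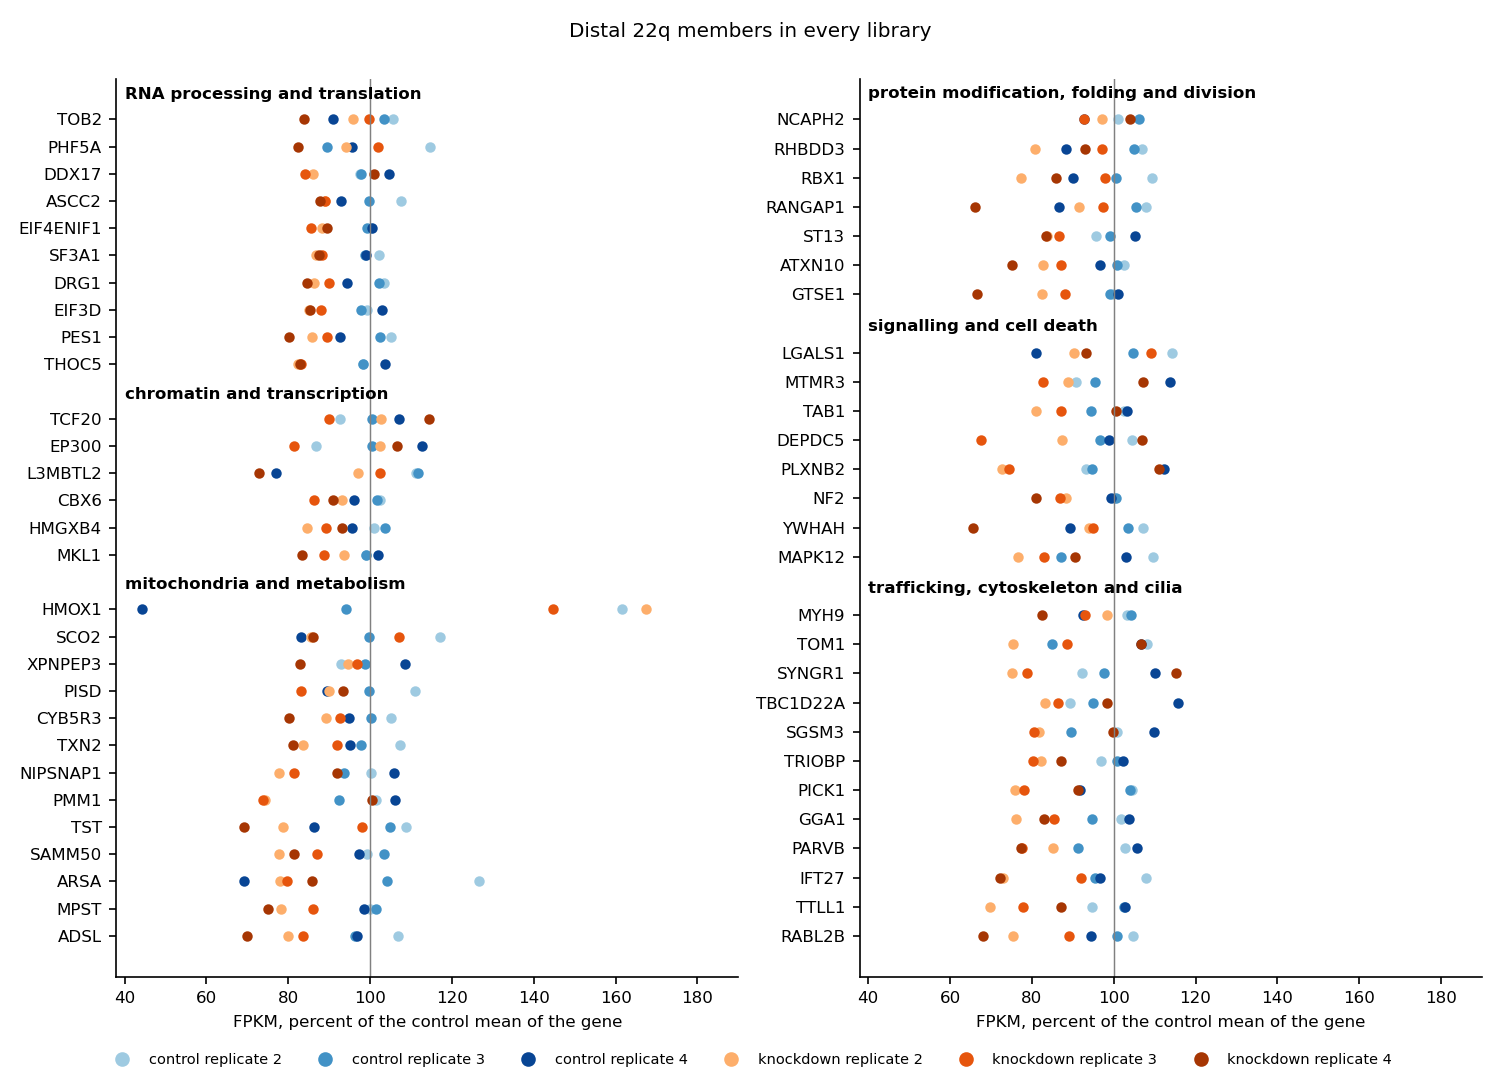
Level of each kept 22q member in each of the 6 libraries as a percentage of its control mean (horizontal axis), with genes on the vertical axis in their 6 role groups and control and knockdown libraries marked by colour. The point of knockdown library 2 lies left of all 3 control points in 41 of the 56 genes, that of library 3 in 40 and that of library 4 in 37. The 37 include HMOX1, whose point for library 4, at a ratio of 0.253 to its control mean, is off the axis and not drawn.

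Promoter sequences of 4 members are shown to set the DNA at the starts of transcription of members of unlike function side by side. RABL2B and TTLL1 are the members with the lowest share of control that have an entry, and SAMM50 and THOC5 were added after their values were seen. Each window runs from 250 bases before to 50 bases after the start in RefSeq (GRCh38.p14), written 5′ to 3′ along the gene. Capitals mark every match, on either strand, to the motifs searched. The first motif was the GC box GGGCGG, bound by factors of the SP family. The next was CCAAT, which is found upstream of many housekeeping genes. Then came GGAAGT, which resembles the core of binding sites of ETS factors. The last were the TATA box TATAAA, which positions the polymerase at some promoters, and the cAMP response element, TGACGTCA. The windows are at chr22:50783587-50783886, minus strand, chr22:43089342-43089641, minus strand, chr22:43955192-43955491, plus strand and chr22:29553708-29554007, minus strand, in the order printed.
RABL2B: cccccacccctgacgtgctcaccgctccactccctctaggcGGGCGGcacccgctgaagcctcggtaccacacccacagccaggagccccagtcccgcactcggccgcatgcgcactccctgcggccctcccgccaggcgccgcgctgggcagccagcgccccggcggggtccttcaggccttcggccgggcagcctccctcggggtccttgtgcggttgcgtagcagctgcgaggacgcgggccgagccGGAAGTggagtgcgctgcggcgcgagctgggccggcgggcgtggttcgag
TTLL1: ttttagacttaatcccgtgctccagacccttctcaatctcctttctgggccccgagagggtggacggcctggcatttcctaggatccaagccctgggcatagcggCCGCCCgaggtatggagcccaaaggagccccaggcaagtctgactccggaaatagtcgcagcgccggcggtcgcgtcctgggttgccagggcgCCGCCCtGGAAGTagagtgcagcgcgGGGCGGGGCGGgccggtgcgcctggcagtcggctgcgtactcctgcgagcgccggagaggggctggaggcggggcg
SAMM50: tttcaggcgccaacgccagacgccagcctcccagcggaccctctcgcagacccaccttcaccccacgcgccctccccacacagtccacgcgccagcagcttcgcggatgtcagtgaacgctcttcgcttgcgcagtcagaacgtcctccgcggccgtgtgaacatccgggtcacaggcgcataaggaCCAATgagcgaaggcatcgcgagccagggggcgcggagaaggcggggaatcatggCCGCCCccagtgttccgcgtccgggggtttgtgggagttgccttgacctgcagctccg
THOC5: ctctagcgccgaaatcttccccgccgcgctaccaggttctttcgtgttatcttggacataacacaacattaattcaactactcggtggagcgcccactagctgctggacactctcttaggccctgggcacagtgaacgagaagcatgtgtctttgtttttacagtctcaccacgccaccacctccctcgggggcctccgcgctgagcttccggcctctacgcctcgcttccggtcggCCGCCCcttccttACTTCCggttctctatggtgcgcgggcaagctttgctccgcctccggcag
All 4 windows hold the GC box. RABL2B, TTLL1 and THOC5 also hold GGAAGT, SAMM50 holds CCAAT, and none of the 4 holds TATAAA or TGACGTCA.

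A RefSeq window was found for 45 of the 58 members. Their median GC content was 66.7%, with a median of 31 CpG dinucleotides and an observed-to-expected CpG ratio of 0.913, the pattern of CpG islands. The 94 other kept genes of the arm that have a window gave 69.0%, 30.5 and 0.871, the 9171 kept genes with a window gave 65.7%, 27 and 0.851, and all 35116 windows gave 58.7%, 14 and 0.579. The GC box was in 34 of the 45 member windows (75.6%), in 71.3% of kept genes and in 45.0% of all windows. GGAAGT was in 14 (31.1%), beside 27.9% of kept genes and 22.8% of all windows. CCAAT was in 12 (26.7%), beside 37.3% and 34.6%, and in 45.7% of the other arm genes. TATAAA and TGACGTCA were in 3 member windows each (6.67%), beside 5.10% and 3.52% of kept genes and 11.5% and 1.85% of all windows. The motifs may overlap one another, and a match is only a match of letters. In GC content and in the share with a GC box, the member windows were nearer to those of expressed genes at large than to all windows.

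Among 10 members that act on RNA and translation, 7 were lower without overlap, beside 4.35% of all genes kept. All 10 had a log2 difference below 0, as had 6488 of the 12164 genes kept, and their median share of control was 87.7%. EIF3D, the cap-binding subunit of translation initiation factor eIF3 (chr22:36510850-36529436, minus strand), measured 122, 120.3 and 127 FPKM in the control libraries and 105, 108 and 105 FPKM in the knockdown libraries. All knockdown libraries lay below all controls, at 86.2% of the control mean (log2 difference -0.21 (SE 0.06)). THOC5, a subunit of the THO complex that couples transcription to mRNA export (chr22:29505879-29555216, minus strand), measured 31.5, 31.4 and 33.2 FPKM in the control libraries and 26.4, 26.6 and 26.5 FPKM in the knockdown libraries. It was the lowest of the 10 in share of control, 82.7% (log2 difference -0.26 (SE 0.06)), and its knockdown values had an SD of 0.105 FPKM. PES1, a ribosome biogenesis factor (chr22:30576625-30607083, minus strand), measured 72.6, 70.8 and 63.9 FPKM in the control libraries and 59.4, 61.8 and 55.4 FPKM in the knockdown libraries, again with no overlap and at 85.2% (log2 difference -0.23 (SE 0.08)). DDX17, an RNA helicase (chr22:38483440-38507660, minus strand), measured 108, 108 and 115 FPKM in the control libraries and 94.8, 92.5 and 111 FPKM in the knockdown libraries. Its knockdown library 4 lay above control libraries 2 and 3, so its groups overlapped, and its mean was at 90.3% of control.

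The other 6 genes of this role had lower means as well. DRG1, a GTPase bound to translating ribosomes, was at 86.9% of control. SF3A1, a splicing factor of the U2 particle, was at 87.6%, EIF4ENIF1, which carries the cap-binding protein eIF4E and represses mRNAs, at 87.8%, and ASCC2, a ubiquitin-binding subunit of the ASC-1 complex, at 88.5%. In each of these 4 all knockdown values lay under all control values. Of these, EIF4ENIF1 measured 10.8, 10.7 and 10.8 FPKM in the control libraries and 9.49, 9.19 and 9.62 FPKM in the knockdown libraries. PHF5A, another splicing factor of the U2 particle, at 92.8%, and TOB2, an antiproliferative protein tied to mRNA deadenylation, at 93.1%, overlapped between groups.

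The 6 kept regulators of chromatin and transcription had the highest median share of control of the 6 role groups, 90.4%, and 3 of them were lower without overlap (4.35% of all genes kept). CBX6, a chromodomain protein of Polycomb repressive complexes (chr22:38861450-38872314, minus strand), measured 28.1, 27.8 and 26.3 FPKM in the control libraries and 25.5, 23.7 and 24.9 FPKM in the knockdown libraries, at 90.1% of control. MKL1, the actin-regulated coactivator of serum response factor (chr22:40410281-40636702, minus strand), measured 8.31, 8.31 and 8.55 FPKM in the control libraries and 7.86, 7.44 and 6.99 FPKM in the knockdown libraries, at 88.5%. HMGXB4, an HMG-box protein (chr22:35257452-35295807, plus strand), measured 11.8, 12.1 and 11.2 FPKM in the control libraries and 9.91, 10.4 and 10.9 FPKM in the knockdown libraries, at 89.0%. These 3 did not overlap between groups, and for HMGXB4 the nearest values were 10.9 FPKM in knockdown library 4 and 11.2 FPKM in control library 4.

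EP300 (chr22:41091786-41180079, plus strand) measured 10.3, 11.9 and 13.3 FPKM in the control libraries and 12.1, 9.62 and 12.6 FPKM in the knockdown libraries. Control library 2 was below knockdown libraries 2 and 4, and the mean was at 96.8% of control, so EP300 was among the members nearest to no difference (log2 difference -0.04 (SE 0.13)). TCF20, a transcriptional coregulator (chr22:42160013-42343616, minus strand), measured 10.1, 11.0 and 11.7 FPKM in the control libraries and 11.2, 9.81 and 12.5 FPKM in the knockdown libraries. Its mean was at 102% of control (log2 difference 0.03 (SE 0.10)) and its groups overlapped. L3MBTL2, a Polycomb-group protein, was at 90.8%, and its libraries numbered 4 were the lowest of both groups. CBX7, a second Polycomb chromodomain protein, was below 1 FPKM in all libraries, with 0.350, 0.333 and 0.428 FPKM in the control libraries and 0.481, 0.221 and 0.831 FPKM in the knockdown libraries, and was not kept.

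The 13 genes of mitochondria and metabolism held some of the lowest shares of control; the median was 83.7% and 6 were lower without overlap, where 4.35% of all genes kept were. ADSL, adenylosuccinate lyase of purine synthesis (chr22:40346500-40390463, plus strand), measured 78.8, 71.0 and 71.3 FPKM in the control libraries and 59.0, 61.7 and 51.6 FPKM in the knockdown libraries. It had the most negative log2 difference of all members, -0.36 (SE 0.09), at 77.9% of control, with no overlap. MPST, a sulfurtransferase that can yield hydrogen sulfide (chr22:37019635-37029822, plus strand), measured 97.1, 98.4 and 95.7 FPKM in the control libraries and 75.8, 83.6 and 72.9 FPKM in the knockdown libraries, and was at 79.8% (log2 difference -0.32 (SE 0.07)). NIPSNAP1, a mitochondrial protein used in mitophagy (chr22:29554808-29581337, minus strand), measured 100.4, 93.8 and 106 FPKM in the control libraries and 77.7, 81.6 and 91.9 FPKM in the knockdown libraries. Its groups did not overlap and its mean was at 83.7%, although knockdown library 4 came close to control library 3.

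TST, rhodanese, is the paralog of MPST and its neighbour on the opposite strand. TST measured 24.5, 23.6 and 19.4 FPKM in the control libraries and 17.7, 22.1 and 15.5 FPKM in the knockdown libraries, at 82.0% of control. Its knockdown library 3 was above control library 4, so the groups overlapped where those of MPST did not. SAMM50, which inserts proteins into the mitochondrial outer membrane (chr22:43955421-44010531, plus strand), measured 42.5, 44.3 and 41.7 FPKM in the control libraries and 33.3, 37.3 and 34.9 FPKM in the knockdown libraries. All of its knockdown libraries were lower, at 82.0%. TXN2, the mitochondrial thioredoxin, at 85.6% and CYB5R3, a cytochrome b5 reductase, at 87.3% were also lower without overlap.

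PMM1, a phosphomannomutase, was at 82.9%, PISD, which makes phosphatidylethanolamine in mitochondria, at 88.8%, XPNPEP3, an aminopeptidase, at 91.3% and SCO2, a copper chaperone of cytochrome c oxidase, at 92.8%. The groups of these 4 genes overlapped. ARSA, the lysosomal arylsulfatase A, was near the floor of the kept genes, with 1.52, 1.25 and 0.829 FPKM in the control libraries and 0.935, 0.954 and 1.03 FPKM in the knockdown libraries, and overlapped at 81.2%. HMOX1, the inducible haem oxygenase (chr22:35380361-35394214, plus strand), measured 2.77, 1.61 and 0.760 FPKM in the control libraries and 2.87, 2.48 and 0.434 FPKM in the knockdown libraries. The libraries numbered 4 were the lowest in both groups, and the spread within a group was over the difference between them: 1.72 ± 1.01 FPKM in control and 1.93 ± 1.31 FPKM in knockdown (mean ± SD, n = 3), a share of 112% and a log2 difference of 0.05 (SE 0.43).

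The 7 genes of protein modification, folding and cell division had a median of 85.0% of control, and 3 were lower without overlap, against 4.35% of all genes kept. ST13, a cochaperone of the Hsp70 chaperones (chr22:40824535-40857022, minus strand), was the most abundant member, with 123, 128 and 136 FPKM in the control libraries and 108, 112 and 108 FPKM in the knockdown libraries. Its highest knockdown value was well under its lowest control value, and its mean was at 84.6% (log2 difference -0.24 (SE 0.07)). GTSE1, a microtubule-binding protein of dividing cells (chr22:46296741-46330810, plus strand), measured 32.3, 32.0 and 32.7 FPKM in the control libraries and 26.7, 28.5 and 21.6 FPKM in the knockdown libraries. Its controls had an SD of 0.334 FPKM, all knockdown libraries were lower with library 4 the lowest, and the mean was at 79.1% (log2 difference -0.34 (SE 0.11)). ATXN10, a protein linked to cytokinesis and cilia (chr22:45671798-45845307, plus strand), measured 62.5, 61.5 and 59.0 FPKM in the control libraries and 50.5, 53.1 and 45.9 FPKM in the knockdown libraries, with no overlap and at 81.7%.

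RBX1, the RING subunit of cullin ubiquitin ligases (chr22:40951347-40973309, plus strand), measured 98.9, 90.8 and 81.4 FPKM in the control libraries and 70.0, 88.3 and 77.6 FPKM in the knockdown libraries. Knockdown library 2 was the lowest of all, but library 3 was above control library 4, and the mean was at 87.0%. RANGAP1, which drives GTP hydrolysis by the transport protein Ran, measured 51.7, 50.6 and 41.5 FPKM in the control libraries and 43.8, 46.6 and 31.7 FPKM in the knockdown libraries, with the lowest value of each group in its library 4 and a mean at 85%. RHBDD3, a rhomboid-family membrane protein, was at 90.2% and NCAPH2, a subunit of condensin II, at 98%. The groups of these 4 genes overlapped.

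Of the 8 kept genes of signalling and cell death only NF2 was lower without overlap, beside 4.35% of all genes kept, while their median share of control was 86.7%. NF2, which encodes merlin (chr22:29603556-29698598, plus strand), measured 9.25, 9.30 and 9.20 FPKM in the control libraries and 8.17, 8.04 and 7.49 FPKM in the knockdown libraries, at 85.4% of control (log2 difference -0.20 (SE 0.07)). Its 3 controls differed by an SD of 0.0541 FPKM. YWHAH, a phosphoprotein-binding adaptor (chr22:31944461-31957603, plus strand), measured 98.2, 94.7 and 81.8 FPKM in the control libraries and 86.0, 87.0 and 60.1 FPKM in the knockdown libraries. Knockdown library 4 was the lowest by a wide margin, and libraries 2 and 3 were above control library 4, so the groups overlapped at 84.8%. PLXNB2, a semaphorin receptor (chr22:50274979-50307627, minus strand), measured 33.4, 33.9 and 40.2 FPKM in the control libraries and 26.0, 26.6 and 39.8 FPKM in the knockdown libraries. Here the libraries numbered 4 were the highest of both groups, and the mean was at 86.1%. MAPK12, a stress-activated kinase (chr22:50245450-50261825, minus strand), measured 11.7, 9.30 and 11.0 FPKM in the control libraries and 8.18, 8.84 and 9.66 FPKM in the knockdown libraries, overlapping only between knockdown library 4 and control library 3, at 83.5%.

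DEPDC5, a subunit of the GATOR1 complex that restrains mTORC1, was at 87.2%, TAB1, an activator of the kinase TAK1, at 89.5%, MTMR3, a phosphoinositide phosphatase, at 92.9% and LGALS1, galectin-1, at 97.6%. The groups overlapped in all 4. BIK, a death-promoting protein of the BCL2 family, was below 1 FPKM in all libraries, with 0.400, 0.176 and 0.272 FPKM in the control libraries and 0.408, 0.129 and 0.663 FPKM in the knockdown libraries, and was not kept.

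Genes of trafficking, cytoskeleton and cilia had the lowest median share of control of the 6 role groups, 82.4% over 12 genes, and 7 were lower without overlap (4.35% of all genes kept). MYH9, the heavy chain of non-muscle myosin IIA (chr22:36281277-36388067, minus strand), measured 29.8, 30.1 and 26.7 FPKM in the control libraries and 28.4, 26.9 and 23.8 FPKM in the knockdown libraries. It was the most abundant of the 12, overlapped between groups and was at 91.3%. IFT27, a small GTPase of intraflagellar transport (chr22:36758202-36776256, minus strand), measured 22.7, 20.1 and 20.4 FPKM in the control libraries and 15.4, 19.4 and 15.2 FPKM in the knockdown libraries. Knockdown library 3 came near the controls and libraries 2 and 4 did not; the mean was at 79.2% (log2 difference -0.33 (SE 0.11)). TTLL1, a tubulin polyglutamylase (chr22:43039644-43089428, minus strand), measured 7.50, 8.11 and 8.13 FPKM in the control libraries and 5.53, 6.16 and 6.89 FPKM in the knockdown libraries, all knockdown values below all controls, at 78.2%.

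RABL2B, a GTPase needed for cilia and the last member toward the end of the chromosome (chr22:50767501-50783663, minus strand), measured 7.06, 6.80 and 6.37 FPKM in the control libraries and 5.08, 6.0 and 4.59 FPKM in the knockdown libraries. Its share of control, 77.5%, was the lowest of the kept members. It has a near-identical copy on chromosome 2, RABL2A, and reads could have been split between them in the counting, so its value is uncertain. RABL2A gave 2.23, 1.84 and 2.18 FPKM in control and 1.85, 2.16 and 1.71 FPKM in knockdown libraries; these overlapped, at 91.6% of control.

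PARVB, an adaptor of focal adhesions, was at 80% of control, GGA1, a clathrin adaptor of the Golgi, at 81.5%, PICK1, which sorts glutamate receptors, at 81.7% and TRIOBP, an actin-bundling protein, at 83.1%. All 4 were lower without overlap. SGSM3 and TBC1D22A, proteins with Rab-regulating domains, were at 87.4% and 89.3%, SYNGR1, a synaptic vesicle protein, at 89.7% and TOM1, an endosomal sorting protein, at 90.2%. These 4 overlapped. SYNGR1 in knockdown library 4 was above all 3 controls (22.5 FPKM against a highest control of 21.5 FPKM), while in libraries 2 and 3 it was below all of them.

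The share without overlap was higher among the abundant members. All 25 members at a mean of 20 FPKM or more had a lower mean, with a median log2 difference of -0.23, and 15 of them (60.0%) were lower without overlap. Over all 4192 genes at this level 2836 had a difference below 0, the median was -0.04 and 5.96% were lower without overlap. Of the 31 members under 20 FPKM 12 (38.7%) were lower without overlap, with a median of -0.16, beside a median of 0.01 and 3.50% over all genes at that level. The abundant genes of knockdown library 4 were lower as a whole: the median over all genes at 20 FPKM or more was -0.11 there, -0.03 in library 2 and 0.02 in library 3, while the abundant members were at -0.27 in library 4, -0.23 in library 2 and -0.17 in library 3. The difference of the log2(FPKM + 1) scale is also smaller at low levels by its construction.

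Along the arm, the median was below -0.1 in every 5 Mb bin past the boundary at 29.2 Mb and nearer to 0 in the bins before it. In the first bin past it, 44 kept genes (13 of them members) had a median log2 difference of -0.19. The next bins gave -0.15 over 51 genes, -0.19 over 54, -0.12 over 20 and -0.16 over 29. Before the boundary the bins gave -0.04 over 26 genes, -0.06 over 60 and 0.01 over 20. In the bin just before the boundary the knockdown libraries did not go the same way, with medians of -0.14, -0.11 and 0.09. The plot along the chromosome shows single genes beside these bins.

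**Figure D2:**
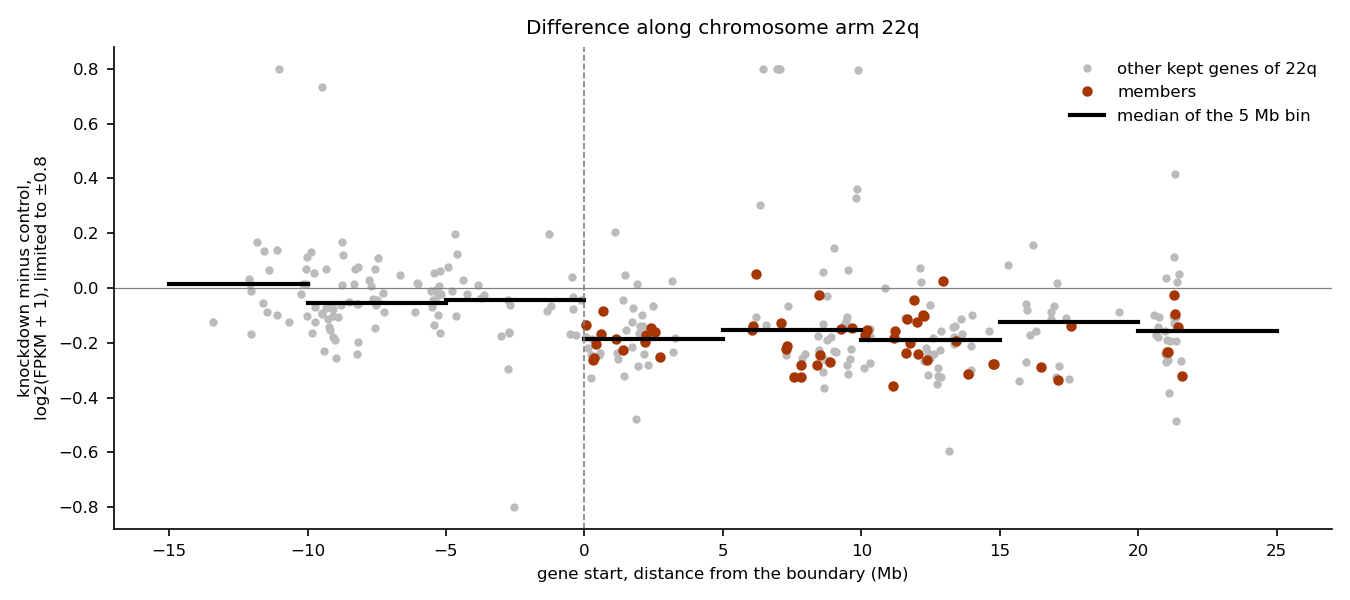
Knockdown minus control difference in log2(FPKM + 1) of each kept gene of chromosome 22 (vertical axis) against the distance of its start from the boundary at 29.2 Mb (horizontal axis, Mb), with 22q members marked apart from other genes and bars at the median of each 5 Mb bin. Genes beyond 0.8 in either direction are drawn at that limit; all 5 bins past the boundary have medians between -0.19 and -0.12.

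The boundary itself is not a sharp edge in single genes. The nearest kept genes inside it were EMID1 at 91.9%, the member RHBDD3 at 90.2% and EWSR1 at 88.2% of control. Of these 3 only EWSR1, an RNA-binding protein, was lower without overlap, with 185, 178 and 174 FPKM in the control libraries and 159, 157 and 157 FPKM in the knockdown libraries. The nearest outside it were KREMEN1 at 96.5%, ZNRF3 at 85.7% and XBP1 at 97.5%, all with overlapping groups. ZNRF3, outside, was thus at a lower share than EMID1, RHBDD3 and EWSR1, inside.

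The other genes of the stretch had a median near that of the members. Over 142 other kept genes of the arm the median log2 difference was -0.17 and the median share of control 87.9%, and 48 (33.8%) were lower without overlap. Their medians in knockdown libraries 2, 3 and 4 were -0.20, -0.13 and -0.17. Abundant examples, named after their values were seen, were RPL3, a protein of the large ribosomal subunit, and EIF3L, another subunit of eIF3. RPL3 measured 2307, 2116 and 2366 FPKM in the control libraries and 1823, 1985 and 1741 FPKM in the knockdown libraries, and EIF3L measured 245, 234 and 268 FPKM in the control libraries and 192, 217 and 172 FPKM in the knockdown libraries. Both were lower without overlap, at 81.7% and 77.8% of control, under the median share of these genes. Of all 70 kept genes of the arm at 20 FPKM or more, members included, 65 had a negative log2 difference and 5 a positive one. At this level, 2836 of all 4192 genes kept had a negative difference and 1356 a positive one. H1F0, at 118% of control, was among the 5 of the arm. It measured 176.1, 165.5 and 245.2 FPKM in the control libraries and 136.5, 142.7 and 413.3 FPKM in the knockdown libraries.

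Only APOL6, APOL1 and ADM2 of these 142 genes were higher without overlap. APOL6 measured 0.00571, 0 and 0 FPKM in the control libraries and 0.221, 0.0184 and 22.8 FPKM in the knockdown libraries, and APOL1 measured 0, 0 and 0.0248 FPKM in the control libraries and 0.045, 0.0356 and 8.17 FPKM in the knockdown libraries. Both were near 0 outside knockdown library 4, the library with the highest interferon response genes, and no fold is given against controls at or near 0. ADM2, a peptide of the adrenomedullin family, measured 1.21, 1.14 and 1.08 FPKM in the control libraries and 1.34, 1.22 and 1.40 FPKM in the knockdown libraries. In knockdown libraries 2, 3 and 4, 10, 9 and 31 of the 142 genes were above all 3 controls. Over the 12164 genes kept it was 2812, 2758 and 3730. Below all 3 controls were 97, 90 and 83 of the 142, beside 25.9%, 21.2% and 35.9% of all genes kept. APOL2, whose groups overlapped, reached 66.7 FPKM in knockdown library 4, beside at most 4.36 FPKM in the controls.

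The 106 kept genes of 22q before the boundary had a median of -0.04, and 7 (6.60%) were lower without overlap. The 11616 kept genes of other chromosomes had a median of -0.01, with 440 (3.79%) lower. By chromosome, 22 as a whole had a median of -0.13 over 304 genes, and the medians of the other chromosomes lay between -0.02 and 0.01. The arm was singled out for this difference, so the contrast with other chromosomes describes the choice. The plot of medians by library sets these groups of genes side by side.

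**Figure D3:**
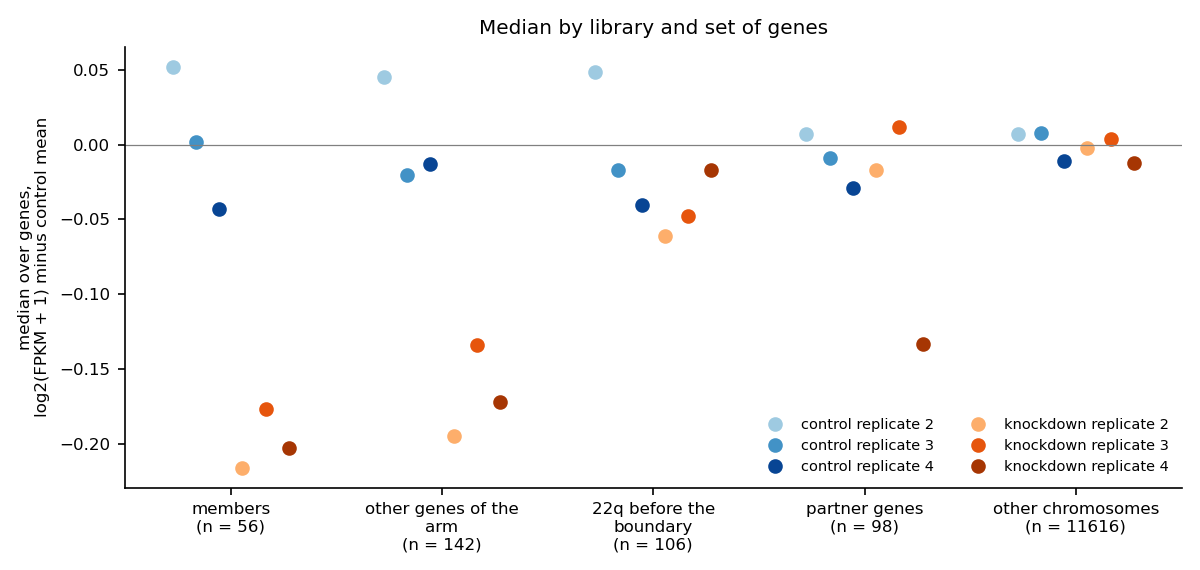
Median difference in log2(FPKM + 1) of each library (points; vertical axis) for 5 sets of genes (horizontal axis, with the number of genes); control libraries are set against the mean of the other 2 controls and knockdown libraries against the mean of all 3. The 3 knockdown points of the 22q members lie between -0.22 and -0.18 and those of genes on other chromosomes between -0.01 and 0.00.

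Reads of genes that overlap on opposite strands cannot be told apart where counting ignores strand, and whether it did is not stated. Of the kept members 10 overlap a kept gene on the other strand, and 6 of those were lower without overlap of groups. Among the 46 without such a neighbour it was 21. Of 27 kept members on the plus strand 12 were lower without overlap, and of 29 on the minus strand 15 were. Over all genes kept the share lower without overlap was 4.35%. Since the members were picked on this contrast, nothing is read from the gap between these counts and that share. The pairs in question include RHBDD3 with EWSR1, PES1 with TCN2, DRG1 with EIF4ENIF1, PISD with SFI1, TST with MPST and SGSM3 with MKL1, whose separate values are thus uncertain.

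Partners of the members were compared as genes outside the member list, though the partners too were chosen with earlier results of these data known. They are subunits of the same complex, paralogs or genes of the same pathway, encoded on other chromosomes. Of 102 listed partners 100 were kept, and 98 of them lie off chromosome 22. Their median log2 difference was -0.03 and the median share of control 97.9%. That median rested in part on single libraries: it was -0.053 without knockdown library 2, -0.060 without knockdown library 3 and -0.012 without knockdown library 4. Without both libraries numbered 4 it was -0.014. Only EIF3E and SMC4 (2.04%) were lower without overlap. None passed the adjusted p of 0.05 with limma, and 1 had an unadjusted p under 0.05. The partners' medians were -0.02, 0.01 and -0.13 in knockdown libraries 2, 3 and 4, so in library 4 the partners were lower too, beside -0.20 for the members.

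Among the 33 members with a kept partner, the member had a lower difference than the median of its partners in 31, with NCAPH2 and HMOX1 the exceptions. This count rests on the members' side on values used to choose them, and is a description. IFT27 was at -0.33 on the log2 scale, and the median of 7 other intraflagellar transport genes was 0.00. SF3A1 was at -0.19 beside -0.02 for SF3A2 and SF3A3, which were at 99.7% and 98.1% of control. GGA1 was at -0.28 beside 0.05 for GGA2 and GGA3, and THOC5 at -0.26 beside -0.07 for 5 other THO subunits.

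In some other sets the partners had negative medians as well. EIF3D was at -0.21 and 10 other eIF3 subunits had a median of -0.13, with EIF3E, at 90.1% of control, lower without overlap. ADSL was at -0.36, beside a median of -0.11 over 5 other enzymes of purine synthesis, of which PAICS was at 90% and GART at 102%. SAMM50 was at -0.28 beside -0.13 for MTX1 and MTX2, metaxins of the mitochondrial outer membrane. NCAPH2 was at -0.03, above the -0.06 of its condensin partners, among which SMC4 was at 89.9%.

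In 3 examples, the paralogs on other chromosomes had a higher share of control than the 22q member. EP300 was at 96.8% of control and its paralog CREBBP at 110%. PMM1 was at 82.9% and PMM2 at 106%, and YWHAH was at 84.8% and its paralogs YWHAE and YWHAZ at 95.4% and 95%. The plot of members against partners shows all 33 pairs.

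**Figure D4:**
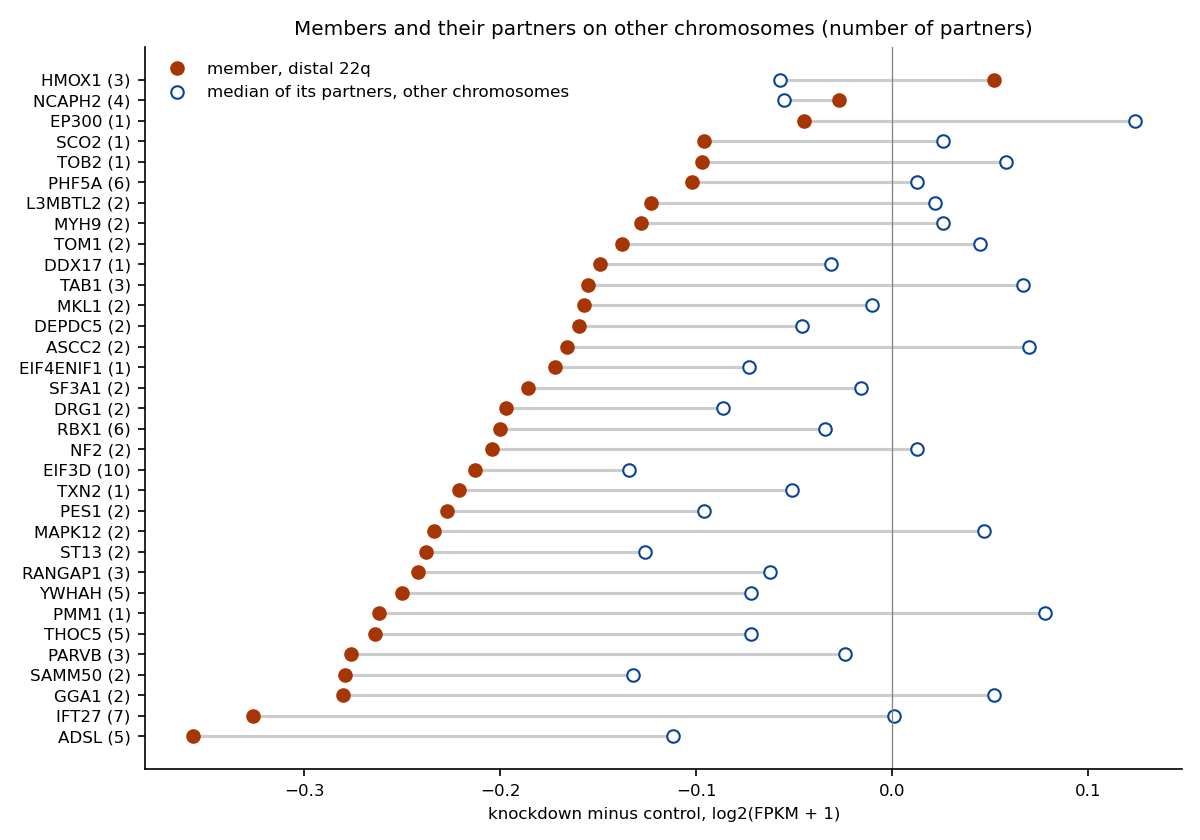
Knockdown minus control difference in log2(FPKM + 1) of 33 members of 22q and the median of their partner genes on other chromosomes (1 row per member, horizontal axis the difference). Member points lie to the left of the partner medians in 31 of 33 rows.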

How the data were processed

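Polyadenylated RNA of 3 control and 3 knockdown libraries was sequenced as paired reads of 150 bases with a target of 100M reads, per the labels' protocols. The authors deposited FPKM values, 1 column per library; TopHat2, Cuffdiff and the hg38 build are named, per the submitters' processing notes. Their versions, the annotation and the strand setting are not given in any source at hand. FPKM is relative to the mapped total, so a few abundant transcripts that rise lower all others in a library. No count model was used, since FPKM holds no counts.

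The 12164 genes whose mean over the 6 libraries reached 1 FPKM were kept, and log2(FPKM + 1) was compared with limma 3.58.1 in R 4.3.3 (intensity trend, two-sided, no covariate, Benjamini-Hochberg over all kept genes, threshold 0.05); fold changes on this scale understate those of low genes. Shares of control are ratios of mean FPKM. Groups were called lower or higher without overlap where all 3 values of one lay beyond all 3 of the other. The fit was tested on simulated data. Genes were placed with GENCODE 29 (98.0% of kept genes), and promoter windows came from RefSeq. Summaries used Python 3.11.15 with pandas 2.3.3.

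All 58 members are named. In each of 6 role groups every library is given for the 2 members of highest mean, the 2 of lowest share of control and any with a share of 100% or more; some others are given after their values were seen. Partners are named where their groups did not overlap, others as examples chosen after their values were seen; a few listed genes are not reported here. The members, role groups, partners and marker lists were chosen with earlier results of these data known. Same-numbered libraries were checked for pairing and are treated as unpaired. Alternatives were other pseudocounts, filters and scalings, library weights, a replicate block and leaving libraries out.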

Additional observations from a re-analysis of the deposited data

How the results depend on the processing

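The summary values were each set against their values under the alternatives. Of these comparisons, 102 kept their direction and side of the threshold, 7 moved, 2 became stronger and none reversed. Sizes could still change among the 102: they include the rise from 27 to 37 members lower without overlap when knockdown replicate 4 was left out. With library weights 22 genes passed the threshold, 4 of them members, and without both libraries numbered 4 it was 1 gene and no member; leaving out single libraries gave 0 throughout. The members' median was -0.215 without both libraries numbered 4 and ranged from -0.215 (without control replicate 4) to -0.171 when single libraries were left out. Without both libraries numbered 4, 48 members were lower without overlap, beside 19.3% of all genes, and leaving out single libraries gave 27 to 37, beside 6.53% to 11.6%. With quantile normalization the median of knockdown library 4 was -0.228, and with no filter the median of the other arm genes was -0.104 (231 genes, the added ones all under a mean of 1 FPKM). MIAT was at -1.581 with library weights (adjusted p = 0.00299) and at -1.536 without both libraries numbered 4 (adjusted p = 0.015, both limma), and between -1.71 and -1.245 when single libraries were left out. It has no value at a minimum of 5 FPKM, and the count without overlap has none under weights or block. The cause of these shifts was not tested. Same-numbered libraries had correlated deviations of 0.092, 0.168 and 0.322 and did not each correlate best with their own number, so the numbers were not taken as pairs; with a replicate block 0 genes passed, the members' median was -0.19 and MIAT's adjusted p 0.194. Over the members alone those correlations were 0.434, 0.324 and 0.735, control 2 again correlating more with knockdown 3 (0.669), and 42 of 56 members were lower in every same-numbered pair, beside 14.1% of all genes. Signs changed for HMOX1, TCF20, LGALS1, SCO2, NCAPH2, EP300, L3MBTL2 and PHF5A under at least 1 alternative, and for no other member. Depth in reads is unknown, and 3 libraries a group limit the precision.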
